A study of Homo sapiens with 3 samples.

Results

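The genes described here encode, in the cell nucleus, the subunits of the respiratory chain (complexes I to IV) and of ATP synthase (complex V). They were chosen by gene symbol among the protein-coding genes of release 29 of the GENCODE annotation: CYC1, the 4 SDH genes, and the symbols starting with NDUFA, NDUFB, NDUFC, NDUFS or NDUFV (assembly factors left out), UQCR, COX4 to COX8 or ATP5. This rule gave 92 of the 58735 genes listed, of which 19951 are protein-coding, with 38 in complex I, 4 in complex II, 10 in complex III, 19 in complex IV and 21 in complex V. NDUFA4 and its relative NDUFA4L2 were counted with complex IV, to which the NDUFA4 protein belongs despite its symbol. The rule also takes in a few genes that are not subunits, such as ATP5S, a related factor, and 2 read-through genes. The genes are spread over the genome, with 12 on chromosome 19 and 8 each on chromosomes 1 and 11.

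RNA sequencing was done on 3 libraries of cells labelled KG1a, a human cell line derived from acute myeloid leukaemia. The control library came from cells that were labelled wild type and had received a control short hairpin RNA (shCtrl) by lentivirus. The other 2 libraries, called knockdown 1 and knockdown 2 here (shTRAF7-1 and shTRAF7-2), came from cells in which lentivirus delivered a hairpin targeting TRAF7, a ubiquitin ligase and signalling adaptor of the TRAF family. The sources used here do not say whether the knockdown libraries carry the same hairpin, whether they came from separate cultures, or how long after infection the cells were harvested. The labels give all 3 libraries the same batch. With 1 control library, every comparison takes the control to vary like the knockdown pair, and p-values measure only the spread between these libraries, which may be technical.

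The respiratory chain sits in the inner mitochondrial membrane. Complex I takes electrons from NADH and complex II from succinate, both hand them to ubiquinone, complex III passes them to cytochrome c, and complex IV passes them to oxygen. Complexes I, III and IV pump protons as they do so, and ATP synthase lets the protons back through its rotating c-ring to make ATP. All of these complexes except complex II combine subunits of the nuclear genome with a few encoded by mitochondrial DNA, and leukaemic cells of myeloid origin are known to use oxidative phosphorylation.

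The deposited values are FPKM (fragments scaled by exon length and by library size), a level per length that allows genes to be compared with each other. The libraries held between 16014485 (control) and 16254461 (knockdown 2) reads assigned to genes. TRAF7 itself stood at 46.5 FPKM in the control against 15.6 in knockdown 1 and 18.3 in knockdown 2, which is 33.6% and 39.4% of the control. The defining KG1a marker CD34 was at 0 FPKM in the control against 0.0070 in knockdown 1 and 0.067 in knockdown 2, and the progenitor genes PROM1 and FLT3 were at 0 in all 3. The CD34 level goes against the label KG1a, and the identity of the cells was not tested. The summed level of 7 progenitor and blast markers was 61.6 FPKM in the control against 54.6 in knockdown 1 and 46.4 in knockdown 2. That of 6 erythroid markers was 95.6, 161.5 and 147.1 FPKM in the same order, with HBA1, an alpha-globin gene, at 22.9, 90.2 and 74.8 FPKM. The sums of the monocyte or granulocyte markers were 8.30, 6.17 and 4.23 FPKM, those of the lymphoid markers 0.70, 1.27 and 1.12 FPKM, and those of the stromal or epithelial markers 20.5, 23.8 and 20.6 FPKM. The order of the erythroid sums rests on HBA1: the other 5 erythroid markers, a split made after their values were seen, summed to 72.7, 71.4 and 72.4 FPKM, and ALAS2 (11.2, 6.99 and 9.13 FPKM) and SLC4A1 (1.05, 0.225 and 0.563 FPKM) were highest in the control. Most of that sum is the erythroid marker KLF1, at 56.5 FPKM in the control against 61.7 in knockdown 1 and 55.8 in knockdown 2. Within the progenitor list KIT was lowest in the control (0.447, 1.05 and 1.43 FPKM) and CD33 had the control between (5.37, 2.66 and 5.48 FPKM). The monocyte sums are nearly all LYZ (8.06, 6.05 and 3.97 FPKM). The part of these markers in the results below was not tested. In RNA from a whole culture, fewer cells of a type and less RNA per cell cannot be told apart.

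Respiratory chain and ATP synthase genes together were higher in both knockdown libraries than in the control. Their summed level was 4985 FPKM in the control against 6693 in knockdown 1 and 6516 in knockdown 2, ratios of 1.34 and 1.31, where the summed level of all 12640 genes tested had ratios of 1.12 and 1.08. As a share of assigned reads, which does not depend on how FPKM were scaled, they took 1.20% in the control (95% Wilson interval 1.196% to 1.206%), against 1.41% (1.408% to 1.419%) and 1.44% (1.437% to 1.448%) in the knockdown libraries. These intervals cover counting error only. The 2 knockdown libraries lie close to each other and the control lies apart below them.

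**Figure D1:**
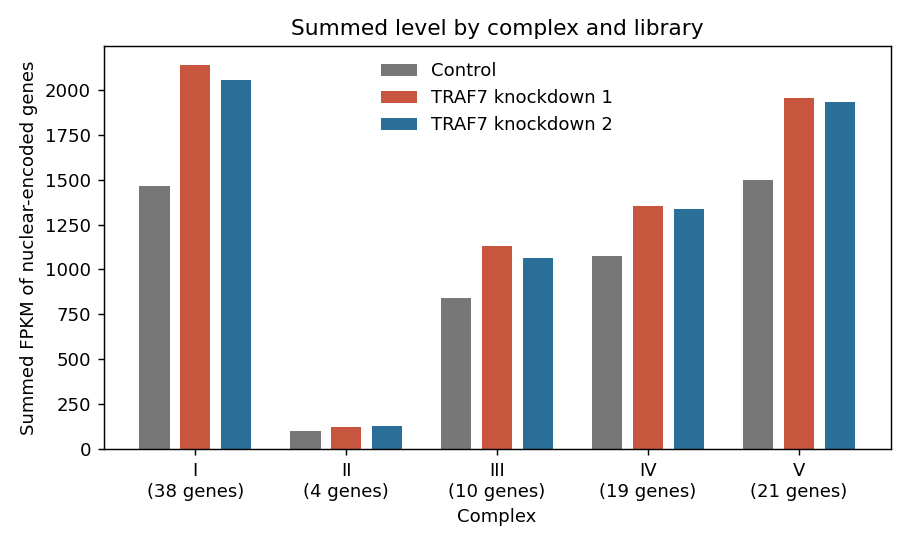
Bars give the summed FPKM of the nuclear-encoded genes of each complex in the control and the 2 TRAF7 knockdown libraries, 1 bar per library, so there are no error bars. In each complex the control bar is the shortest, with complex I going from 1466 FPKM to 2137 and 2057.

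Gene by gene, 82 of the 92 genes reached a mean of 1 FPKM and were tested, from NDUFA13 with a mean of 1.22 FPKM to ATP5F1B with 728.4 FPKM. The control was the lowest of the 3 libraries in 75 of the 82, the highest in 2 and between the knockdown libraries in 5. Among all 12640 genes tested the control was lowest in 42.5% and highest in 30.8%, and among the 9897 protein-coding ones it was lowest in 46.5% and highest in 27.8%. The exact 95% Poisson interval of the control lay wholly below both knockdown intervals in 65 of the 82 genes (16.0% of all genes tested, 19.7% of protein-coding ones) and wholly above both in 0 (7.81% and 8.60%). Such intervals separate more easily in genes with more reads, and these shares are not matched for level. The median level of the 82 genes was 41.7 FPKM, with 11 under 10 FPKM, while 5692 other protein-coding genes tested lay under 10 FPKM. Separate intervals at matched levels were not counted. Both knockdown libraries were at least 25% above the control in 37 genes (10.3% of all genes tested, 9.75% of protein-coding ones) and at least 50% above it in 8 (2.52% and 1.28%). In 63 of the 82 genes the nearer knockdown library was above the control by more than the knockdown libraries differed from each other, which held for 22.2% of all genes tested and 24.8% of protein-coding ones.

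The median fitted log2 difference, knockdown minus control on the scale of log2(FPKM + 1), was 0.32 over the 82 genes and 0.04 over all genes tested. Each knockdown library on its own gave a median of 0.36 (knockdown 1) and 0.32 (knockdown 2), against 0.06 and 0.03 over all genes tested. The size of this median depends on the scaling: it was 0.17 after quantile normalization, with 62 of 82 genes lowest in the control, where all genes tested had a median of 0.020 and 38.6% lowest. With values scaled to all assigned reads it was 0.22, with 69 of 82 genes lowest, where all genes tested had a median of -0.049 and 29.7% lowest. Relative to the median of all genes, the difference was 0.28 as deposited, 0.16 after quantile normalization and 0.26 with scaling to all assigned reads. The fitted difference of 6 genes changed sign under quantile normalization (ATP5F1C, ATP5F1D, ATP5MC2, ATP5PD, COX5B and NDUFC2) and that of 4 under scaling to all assigned reads (ATP5MC2, ATP5S, NDUFA13 and NDUFC2).

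No single gene of the 82 passed the limma test. That test with Benjamini-Hochberg adjustment called 0 of them and 0 of all 12640 genes at an adjusted p of 0.05 (0% of genes tested), and the smallest adjusted p among the 82 was 0.369, for NDUFS5. At an unadjusted p under 0.05 limma gave 32 of the 82, all higher in the knockdown libraries, beside 5.46% of all genes tested that were higher and 3.73% that were lower. The limma-voom test on reads recovered from FPKM called 1 of the 84 genes it covered, ATP5ME, where it called 0.865% of 15034 genes in either direction and 0.206% as higher. Its unadjusted p was under 0.05 for 34 higher genes and 1 lower gene, NDUFA4L2, beside 5.73% of all its genes that were higher.

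**Figure D2:**
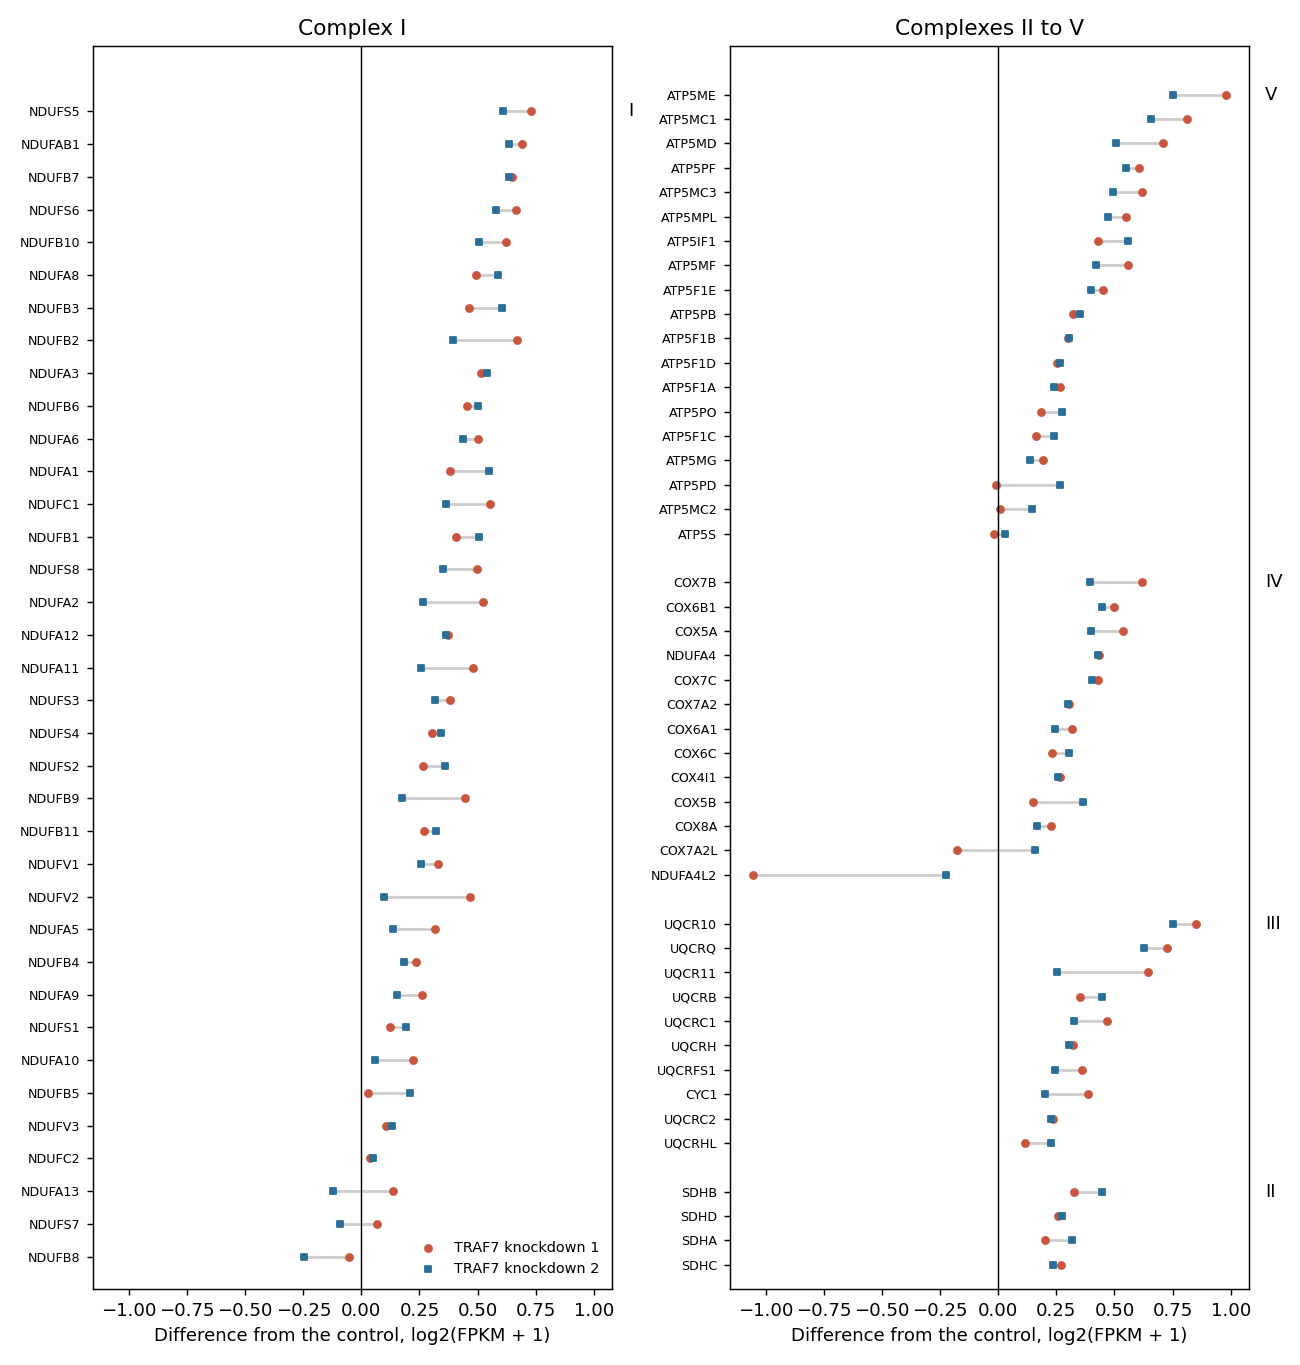
Each row is 1 of the 82 genes tested, and the points give the difference of knockdown 1 (circle) and knockdown 2 (square) from the control in log2(FPKM + 1), with complex I at left and complexes II to V at right. Both points lie right of 0 in 75 genes and left of 0 in NDUFB8 and NDUFA4L2.

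Promoter sequences are shown for 5 genes on which the results turn, from the RefSeq windows of build GRCh38.p14 that run from 250 bases before to 50 after a gene's start. UQCR10, ATP5ME, ATP5MC1 and UQCRQ had the 4 largest fitted differences of all 82 genes, and ATP5MC2 encodes the same mature protein as ATP5MC1 with the smallest difference of the 3 c-ring genes. Such windows were found for 72 of the 92 genes. Capitals mark matches on either strand to sequences known for NRF1 (GCGCA and GCGC with any 1 base between them), for ETS factors such as GABP (CCGGAAGT), for YY1 (AAGATGGC) and for the CCAAT box (CCAAT), factors with known roles in respiratory gene promoters. No match to one motif overlapped a match to another in these 72 windows. Each sequence runs 5′ to 3′ in the direction of the gene.
UQCR10 (chr22:29767119-29767418, plus strand): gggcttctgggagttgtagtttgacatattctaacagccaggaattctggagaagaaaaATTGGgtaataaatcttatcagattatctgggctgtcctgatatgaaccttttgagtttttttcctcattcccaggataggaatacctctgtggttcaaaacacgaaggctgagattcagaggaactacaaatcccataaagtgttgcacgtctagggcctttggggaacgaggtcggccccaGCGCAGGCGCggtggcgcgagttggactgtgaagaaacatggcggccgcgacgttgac
ATP5ME (chr4:674227-674526, minus strand): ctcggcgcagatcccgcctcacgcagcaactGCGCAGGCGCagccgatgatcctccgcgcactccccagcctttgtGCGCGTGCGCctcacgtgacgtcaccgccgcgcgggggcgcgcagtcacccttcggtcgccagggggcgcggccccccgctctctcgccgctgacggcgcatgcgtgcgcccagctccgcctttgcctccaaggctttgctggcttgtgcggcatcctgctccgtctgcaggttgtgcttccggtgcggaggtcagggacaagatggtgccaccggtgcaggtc
ATP5MC1 (chr17:48892537-48892836, plus strand): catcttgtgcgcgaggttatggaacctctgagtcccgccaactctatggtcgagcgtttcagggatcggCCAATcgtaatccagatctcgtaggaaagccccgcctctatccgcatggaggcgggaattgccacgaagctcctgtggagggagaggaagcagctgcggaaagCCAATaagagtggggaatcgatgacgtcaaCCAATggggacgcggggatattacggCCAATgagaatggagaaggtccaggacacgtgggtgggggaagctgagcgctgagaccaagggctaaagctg
UQCRQ (chr5:132866392-132866691, plus strand): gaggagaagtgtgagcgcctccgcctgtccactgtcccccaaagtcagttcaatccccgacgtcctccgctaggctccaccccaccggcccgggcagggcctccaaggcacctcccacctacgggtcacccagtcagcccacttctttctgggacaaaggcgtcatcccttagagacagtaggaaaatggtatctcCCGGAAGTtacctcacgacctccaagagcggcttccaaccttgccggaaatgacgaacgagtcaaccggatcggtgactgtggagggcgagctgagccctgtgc
ATP5MC2 (chr12:53676034-53676333, minus strand): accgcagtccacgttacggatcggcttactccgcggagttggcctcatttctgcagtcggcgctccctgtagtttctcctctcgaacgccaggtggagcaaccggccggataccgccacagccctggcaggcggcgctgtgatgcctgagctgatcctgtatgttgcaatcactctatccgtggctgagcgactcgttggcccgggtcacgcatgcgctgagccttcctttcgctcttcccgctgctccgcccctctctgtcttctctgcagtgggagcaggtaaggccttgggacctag

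The UQCR10 window holds 1 NRF1 match and 1 CCAAT match, the ATP5ME window 2 NRF1 matches, the ATP5MC1 window 4 CCAAT matches and the UQCRQ window 1 ETS match. The ATP5MC2 window holds no match to the 4 motifs. It lies inside the GENCODE gene, which starts at 53677408 on the minus strand, so sequence at that start was not searched. Among genes not shown, NDUFAB1 (fitted log2 difference 0.66) and NDUFB7 (0.64) had no match, while SDHA (0.26) had 4 NRF1 matches. Over the 72 windows, an NRF1 match was present in 17 (23.6%), beside 6.28% of all 27305 promoter windows and 13.3% of those of the protein-coding genes tested. A YY1 match was present in 11 (15.3%), beside 3.03% and 6.29%. An ETS match was present in 10 (13.9%), beside 4.44% and 10.3%, and a CCAAT match in 25 (34.7%), beside 35.7% and 37.8%. The Sp1 sequence GGGGCGGGG was present in 10 (13.9%), beside 16.0% and 29.1%, and the sequence CAAGGTCA of the receptor ERRα in 4 (5.56%), beside 1.33% and 0.694%. The median fitted log2 difference was 0.37 for the 16 tested genes with an NRF1 match and 0.34 for the 50 without. It was 0.36 both with and without a YY1 match, 0.26 with and 0.38 without an ETS match, 0.41 with and 0.33 without a CCAAT match, 0.30 with and 0.37 without an Sp1 match, and 0.21 with and 0.38 without an ERRα match. A match is a description of the letters only and does not show that the factor was bound.

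Complex I, the entry point for electrons from NADH, had the largest ratios of summed level, 1.46 in knockdown 1 and 1.40 in knockdown 2. The control was lowest in 33 of its 36 tested genes, and the median fitted log2 difference was 0.36. Its 7 nuclear core subunits, which carry the flavin, the iron-sulfur clusters and the ubiquinone site, had a median of 0.29 with the control lowest in 6. The 29 tested accessory subunits, which surround and stabilise this core, had a median of 0.39 with the control lowest in 27. By position, the median was 0.31 in the 15 tested genes of the matrix arm and 0.46 in the 20 of the membrane arm, and no test of that difference was made.

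NDUFS5, an accessory subunit of the membrane arm and the most abundant gene of complex I, stood at 385.1 FPKM in the control against 640.3 in knockdown 1 and 587.7 in knockdown 2. Its Poisson intervals do not touch: 372.5 to 397.9 FPKM for the control, against 623.4 to 657.5 and 571.9 to 603.8. The fitted log2 difference was 0.67 ± 0.11 (SE), with an adjusted p of 0.369 by limma and 0.0781 by limma-voom. NDUFAB1, the mitochondrial acyl carrier protein that sits in both arms, was at 56.2 FPKM in the control against 91.3 and 87.9, a difference of 0.66 ± 0.15. NDUFB7, an accessory subunit of the membrane arm and second in mean level, was at 105.3 FPKM in the control against 165.6 and 164.3, a difference of 0.64 ± 0.14. For both genes the control is the low library and the knockdown libraries lie within a few percent of each other. Neither passed the test (adjusted p of 0.403 each by limma).

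Of the catalytic subunits, NDUFV1, which binds the flavin that takes electrons from NADH, was at 62.5 FPKM in the control against 78.7 in knockdown 1 and 74.9 in knockdown 2. NDUFS8, which carries iron-sulfur clusters, was at 16.8, 24.1 and 21.7 FPKM in that order, the largest difference among the core subunits (0.43 ± 0.18). NDUFS7, which carries the cluster beside the ubiquinone site, was at 8.04, 8.47 and 7.47 FPKM, so the control lies between the knockdown libraries. NDUFB8, an accessory subunit of the membrane arm, was highest in the control, with 5.78 FPKM against 5.53 and 4.71, a difference of -0.15 ± 0.19. Its Poisson intervals overlap across the 3 libraries. NDUFA13 was at 1.20, 1.42 and 1.02 FPKM, with the control again between. These 3 genes have low levels, and 48.5% of the exon bases of NDUFB8 and 49.1% of those of NDUFS7 also belong to exons of other genes.

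Complex II, succinate dehydrogenase, links the citric acid cycle to the chain and has only nuclear subunits. The control was lowest in all 4 genes, and the ratios of summed level were 1.21 and 1.28. SDHA, the flavoprotein that oxidises succinate, stood at 31.4 FPKM in the control against 36.2 in knockdown 1 and 39.3 in knockdown 2 (0.26 ± 0.17). SDHB, the iron-sulfur subunit, was at 30.7, 38.7 and 42.2 FPKM, the largest difference of the 4 (0.39 ± 0.17). The membrane anchors were at 7.32, 9.04 and 8.81 FPKM (SDHC, 0.25 ± 0.17) and at 30.5, 36.7 and 37.1 FPKM (SDHD, 0.27 ± 0.17). The knockdown libraries lie above the control in each gene, with Poisson intervals apart from that of the control in all 4, while limma gave 0 of the 4 an unadjusted p under 0.05 and limma-voom gave 0. SDHA has 3 annotated pseudogenes with 538 reads in the control against 497 in knockdown 1 and 493 in knockdown 2, beside 4442, 4727 and 5360 reads of SDHA itself, so its reads may be split in part.

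Complex III, which moves electrons from ubiquinone to cytochrome c, had the control lowest in all 10 genes and ratios of summed level of 1.34 and 1.26. The small subunits UQCR10, UQCRQ and UQCR11 had the 3 largest differences of the complex and are named for that reason. The catalytic subunits lay among the remaining genes, whose differences ran from 0.17 to 0.40, and no test between subunits was made. CYC1, cytochrome c1, was at 187.1 FPKM in the control against 244.4 in knockdown 1 and 215.1 in knockdown 2, and UQCRFS1, the Rieske iron-sulfur protein, at 38.9, 50.3 and 46.2 FPKM. Their fitted differences were 0.29 ± 0.14 and 0.30 ± 0.17. UQCR10, a small subunit whose promoter is shown above, was at 37.0 FPKM in the control against 67.5 and 63.0 (0.80 ± 0.16). Its control interval of 34.1 to 40.1 FPKM is far from the knockdown intervals of 63.4 to 71.7 and 59.2 to 67.0, and its adjusted p was 0.403 by limma and 0.0503 by limma-voom. UQCRQ, another small subunit, was at 75.1, 124.7 and 116.4 FPKM (0.67 ± 0.15, adjusted p of 0.403 and 0.0890 by the same tests). Of its exon bases 20.8% also lie in exons of the neighbouring gene GDF9. UQCR11, also small, was at 13.7 FPKM in the control against 22.0 in knockdown 1 and 16.6 in knockdown 2, so the knockdown libraries differ here. UQCRH, the hinge protein that helps cytochrome c1 to bind cytochrome c, was at 357.0, 446.9 and 441.4 FPKM, the highest level of the complex (0.31 ± 0.11). Its near copy UQCRHL was listed at 7.01, 7.66 and 8.38 FPKM, and reads of the pair may be exchanged.

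Complex IV, cytochrome c oxidase, passes electrons to oxygen, and its catalytic subunits are encoded by mitochondrial DNA. The ratios of summed level of its nuclear genes were 1.26 and 1.24. In the 11 genes of the common forms, the control was lowest in all 11, with separate Poisson intervals in all 11, and the median fitted log2 difference was 0.30. COX8A, the most abundant, was at 296.0 FPKM in the control against 346.7 in knockdown 1 and 332.6 in knockdown 2 (0.20 ± 0.12). COX6B1, which joins the oxidase into dimers, was at 162.0, 229.1 and 221.1 FPKM (0.47 ± 0.13). COX7B was at 29.5, 45.9 and 39.1 FPKM (0.51 ± 0.19), and COX5A at 67.3, 98.1 and 89.1 FPKM (0.47 ± 0.16). The differences of complex IV genes spread from 0.20 for COX8A to 0.51 for COX7B within the common forms, and limma gave an adjusted p of 0.445 or more to each.

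Several subunits of complex IV exist in forms that are used in different tissues, and in these cells nearly all reads lay on the common form. COX4I1 was at 116.7, 140.3 and 139.6 FPKM, while COX4I2, the form known from lung and low oxygen, had 0 reads in all 3 libraries. COX6A1 was at 39.8, 49.9 and 47.4 FPKM, and the heart and muscle form COX6A2 had 0 reads. COX7A2 was at 72.6, 90.0 and 89.6 FPKM, and the muscle form COX7A1 had 2, 9 and 1 reads. The testis forms were also near 0: COX6B2 had 8, 17 and 27 reads, COX7B2 had 0 in all 3 libraries and COX8C had 1, 0 and 0. In each library 0 reads allow up to 3 reads. The control was lowest in each of these common forms and the minor forms are too few in reads to compare.

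NDUFA4 and NDUFA4L2 differed in direction. NDUFA4 was at 31.6 FPKM in the control against 43.1 in knockdown 1 and 42.9 in knockdown 2 (0.43 ± 0.17). NDUFA4L2, a relative known to be induced by low oxygen, was at 2.22 FPKM in the control against 0.550 in knockdown 1 and 1.75 in knockdown 2 (-0.64 ± 0.39, adjusted p of 0.657 by limma and 0.265 by limma-voom). Knockdown 1 alone stands apart for NDUFA4L2, with 24 reads against 105 in the control and 80 in knockdown 2, and the intervals of the control and knockdown 2 overlap. COX7A2L, which helps to join complexes III and IV into supercomplexes, was at 19.9, 17.5 and 22.3 FPKM, so the control lies between.

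**Figure D3:**
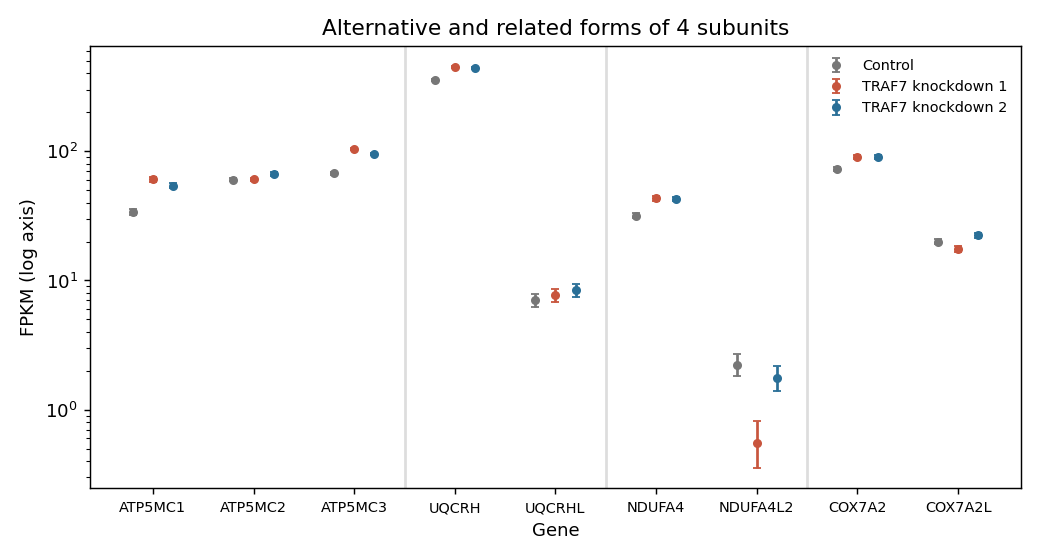
Points give the FPKM of alternative or related genes in each library on a log axis, with exact 95% Poisson intervals that cover counting error only. ATP5MC1 and ATP5MC3 are lowest in the control while the 3 points of ATP5MC2 lie between 60.4 and 66.8 FPKM, and NDUFA4L2 is lowest in knockdown 1.

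ATP synthase, complex V, had ratios of summed level of 1.30 and 1.29, and the control was lowest in 17 of its 19 tested genes. ATP5F1B, the catalytic beta subunit and the most abundant of all 92 genes, was at 630.2 FPKM in the control against 775.4 in knockdown 1 and 779.6 in knockdown 2 (0.30 ± 0.09, adjusted p of 0.469 by limma). The 5 genes of the F1 head, where ATP is made, had a median fitted log2 difference of 0.26, the smallest of its 4 structural parts. ATP5F1C and ATP5F1D among them changed sign after quantile normalization. The 5 membrane accessory subunits, which hold the enzyme in dimers, had a median of 0.51, and the 4 of the peripheral stalk 0.28. ATP5IF1, the inhibitor that stops the enzyme from running in reverse, was at 65.8, 89.1 and 97.3 FPKM (0.49 ± 0.16).

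ATP5ME, the e subunit, had the largest fitted difference of all 82 genes. It stood at 28.2 FPKM in the control (95% interval 25.6 to 30.9), against 56.5 (52.7 to 60.4) and 48.1 (44.7 to 51.7), a difference of 0.86 ± 0.18. The adjusted p was 0.403 by limma and 0.0422 by limma-voom. The control is the low library and the intervals of the knockdown libraries do not touch that of the control. Of the exon bases of ATP5ME, 61.6% also lie in exons of MYL5 on the other strand, a gene with 68 reads in the control against 65 in knockdown 1 and 91 in knockdown 2 where ATP5ME had 447, 826 and 735. Nothing in the labels or files says whether the counting used the strand. ATP5MD, known as DAPIT, was at 62.0, 102.1 and 88.4 FPKM (0.61 ± 0.17).

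The c-ring, which turns as protons pass, is built from copies of 1 protein that is encoded by 3 genes with different targeting sequences. ATP5MC1 was at 34.0 FPKM in the control against 60.5 in knockdown 1 and 54.2 in knockdown 2 (0.73 ± 0.17, adjusted p of 0.403 by limma and 0.0577 by limma-voom). ATP5MC3 was at 67.4, 104.0 and 95.2 FPKM (0.56 ± 0.16). ATP5MC2 was at 60.4, 60.6 and 66.8 FPKM (0.08 ± 0.17), with the control and knockdown 1 overlapping in their intervals, and its difference was below 0 after quantile normalization and with scaling to all assigned reads. Summed over the 3 genes, the level went from 161.7 FPKM in the control to 225.0 in knockdown 1 and 216.3 in knockdown 2. The differences between the 3 genes were not tested.

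The control was not lowest in ATP5S and ATP5PD. ATP5S was at 1.71, 1.68 and 1.76 FPKM. ATP5PD, the d subunit of the peripheral stalk, was at 26.0, 25.8 and 31.4 FPKM, so knockdown 2 alone is higher. By contrast ATP5PF, coupling factor 6 of the same stalk, was at 48.6, 74.5 and 71.6 FPKM (0.58 ± 0.16). ATP5PB, the b subunit of the stalk and second in mean level in the complex, was at 92.6, 116.0 and 118.6 FPKM (0.34 ± 0.15), with the control again the lowest.

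In all, 10 of the 92 genes lay below the mean of 1 FPKM. These were the 6 minor complex IV forms given above, the read-through genes ATP5MF-PTCD1 (1, 0 and 0 reads) and NDUFC2-KCTD14 (0 reads in all 3 libraries), ATP5MGL, a relative of the g subunit gene (1, 1 and 0 reads), and NDUFA7. NDUFA7, an accessory subunit of complex I, is just below the limit, with 24 reads in the control against 8 in knockdown 1 and 19 in knockdown 2. Those read numbers are low for a subunit of a complex whose other genes reach 640.3 FPKM, and they are highest in the control. Of the exon bases of NDUFA7, 33.5% also lie in exons of RPS28 and AC010323.1, so its reads may be split, which was not tested.

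The difference from the control varied with gene length and level, both within these genes and in the rest. The 22 genes with under 1500 bases of exon had a median fitted log2 difference of 0.48 with the control lowest in all 22, and the 370 other protein-coding genes of that length had 0.19 with the control lowest in 61.4%. The 12 genes with 6000 bases or more had a median of 0.22 with the control lowest in 10, and the 3783 others 0.01 with the control lowest in 36.3%. By level, the 11 genes with a mean under 10 FPKM had a median of 0.12 with the control lowest in 6, against -0.01 and 34.6% in 5692 others. The 40 genes between 30 and 100 FPKM had 0.41 with the control lowest in all 40, against 0.21 and 70.1% in 1122 others, and the 14 genes at 100 FPKM or more had 0.38 with the control lowest in all 14, against 0.21 and 79.4% in 310 others. In each class of length and level the median of these genes was above that of the other protein-coding genes. Reads of genes annotated as sense intronic also differed between the libraries. They accounted for 553.2 RPM (assigned reads per library, rescaled to a fixed total) in the control against 448.5 and 475.5 in the knockdown libraries. Reads from introns in general were not counted. The part of length, level and sense intronic genes in the results was not tested further.

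**Figure D4:**
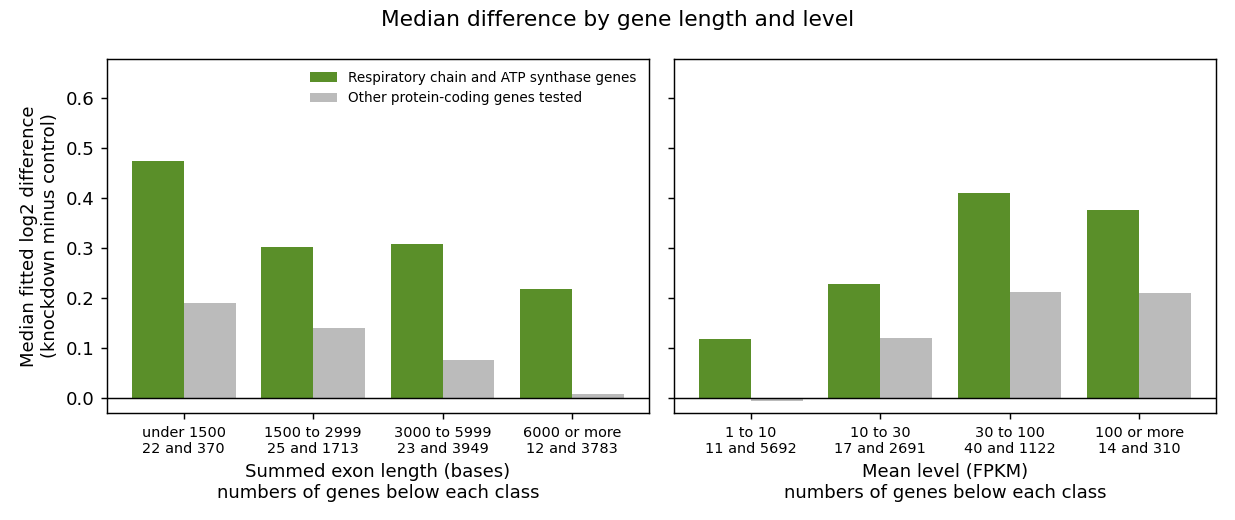
Bars give the median fitted log2 difference, knockdown minus control, of the respiratory chain and ATP synthase genes and of the other protein-coding genes tested, by summed exon length at left and by mean FPKM at right. Short genes have higher medians in both sets (0.48 and 0.19 under 1500 bases), and the median of the respiratory genes is the higher in every class.

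Sharing of reads with other genes could move single values. Of the 92 genes, 36 have at least 10% of their exon bases in exons of another gene and 42 have none. Among the 51 tested genes with less than 10%, the control was lowest in 49 and the median difference was 0.37, and among the 31 with more it was lowest in 26 and the median was 0.30. These 2 sets also differ in level. The 51 had a median level of 49.6 FPKM with 4 genes under 10 FPKM, and the 31 had 28.0 FPKM with 7. The part of sharing in the difference between the sets was not tested. For 46 of the genes the annotation holds 160 pseudogenes, which together had 880 reads in the control against 930 in knockdown 1 and 944 in knockdown 2, or 0.658%, 0.589% and 0.581% of the reads of their 46 parent genes.

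Knockdown 1 was above knockdown 2 in 51 of the 82 genes, beside 54.7% of all genes tested and 56.9% of protein-coding ones. Its Poisson interval lay above that of knockdown 2 in 20 genes (20.5% of all genes tested and 25.0% of protein-coding ones) and below it in 9 (13.5% and 15.2%). These numbers are near the shares over all genes.

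Genes that help to build the complexes were mostly lowest in the control as well. For complex I the control was lowest in 14 of 16 assembly factors and highest in 0, with a median fitted log2 difference of 0.27 (0.25 after quantile normalization). NDUFAF8, one of them, was at 17.4 FPKM in the control against 38.0 in knockdown 1 and 31.9 in knockdown 2 (0.96 ± 0.19), with an adjusted p of 0.403 by limma and 0.0206 by limma-voom, and it was the only gene of the related lists called by limma-voom. NDUFAF2 was at 29.2, 40.0 and 47.6 FPKM. For complex IV the control was lowest in 14 of 17 tested factors of 21 listed and highest in 1 (median 0.25), with COA3 at 8.35, 16.8 and 12.5 FPKM and the copper chaperone COX17 at 7.64, 9.85 and 11.8 FPKM. The other lists are short. For complex II the control was lowest in 2 of 4 (median 0.14, but 0.0042 from knockdown 1 alone and 0.27 from knockdown 2 alone, with 2 of 4 below 0 when scaled to all assigned reads), with SDHAF3 at 18.2, 22.0 and 24.2 FPKM and SDHAF2 at 3.92, 4.18 and 4.96. For complex III it was lowest in 4 of 6 and highest in 1 (median 0.18, with 3 of 6 below 0 when scaled to all assigned reads), with UQCC2 at 6.99, 12.3 and 11.6 FPKM and UQCC3 at 7.85, 10.2 and 9.59. For ATP synthase it was lowest in 2 of 3 (median 0.11, but 0.17 from knockdown 1 alone and 0.00086 from knockdown 2 alone), with TMEM70 at 13.1, 16.6 and 13.2 FPKM and ATPAF2 at 3.02, 3.42 and 3.25.

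As deposited, the metabolic neighbours of the chain gave smaller medians than complexes I to V, though the citric acid cycle list came near the 0.26 of complex II. That order did not hold after quantile normalization. Complex IV then had 0.083, the citric acid cycle list 0.084, electron carriers and ubiquinone synthesis 0.11 and regulators of respiratory genes 0.14. Among electron carriers and ubiquinone synthesis genes, the control was lowest in 9 of 14 and highest in 3 (median 0.17), with cytochrome c itself, CYCS, at 68.3, 100.3 and 91.3 FPKM and ETFA, which carries electrons from fatty acid oxidation, at 25.6, 32.8 and 32.3. In the citric acid cycle and pyruvate dehydrogenase list the control was lowest in 15 of 18 and highest in 1 (median 0.25, and 0.08 after quantile normalization). IDH3B, a subunit of isocitrate dehydrogenase, was at 46.4, 69.7 and 64.7 FPKM there, and PDHA1, of pyruvate dehydrogenase, at 31.0, 45.5 and 41.6. Of the carriers and porins the control was lowest in 6 of 7 and highest in 1 (median 0.11, with 3 of 7 below 0 under either other scaling), with VDAC1 at 98.9, 149.4 and 120.9 FPKM and VDAC3 at 47.6, 61.8 and 58.0. The 1 highest in the control was SLC25A6, at 366.1, 344.8 and 336.9 FPKM, with its control interval above both knockdown intervals. Of the regulators of respiratory genes it was lowest in 6 of 12, near the 46.5% of all protein-coding genes tested, and highest in 2. Their median of 0.18 rests on knockdown 1, which alone gave 0.37 where knockdown 2 alone gave 0.015, and 5 of 12 were below 0 under either other scaling. Among them were TFB1M at 5.52, 7.49 and 7.30 FPKM and NRF1 at 4.32, 6.48 and 5.52. The 2 highest in the control were ESRRA and PPARGC1B. ESRRA was at 36.3 FPKM in the control, with 88.3% of that level in knockdown 1 and 79.9% in knockdown 2. Its control interval lay above both knockdown intervals. PPARGC1B was at 2.64 FPKM in the control, with 90.2% of that level in knockdown 1 and 68.6% in knockdown 2. Its control interval overlapped that of knockdown 1. limma called 0 genes of these 10 lists, with 15 of 110 at an unadjusted p under 0.05 (9.19% of all genes tested in either direction), and limma-voom called the 1 named above.

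The subunits encoded by mitochondrial DNA had smaller ratios to the control than their nuclear partners. The control was lowest in 8 of these 13 genes and highest in 1 (median 0.11), but after quantile normalization only 5 of 13 had a difference above 0 and with scaling to all assigned reads 7 of 13. MT-ND6 was at 237.1 FPKM in the control against 416.1 in knockdown 1 and 331.2 in knockdown 2, and MT-ND1 at 1647, 2721 and 2086. By complex, the ratio of summed level to the control was 1.18 and 1.14 for the mitochondrial genes of complex I against 1.46 and 1.40 for the nuclear ones. It was 0.972 and 0.833 for MT-CYB, the mitochondrial gene of complex III, against 1.34 and 1.26 for the nuclear ones. For complex IV it was 1.04 and 1.00 against 1.26 and 1.24, and for ATP synthase 1.06 and 0.919 against 1.30 and 1.29. In these 4 complexes the nuclear ratio was the higher in both knockdown libraries, and the difference was not tested.

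**Figure D5:**
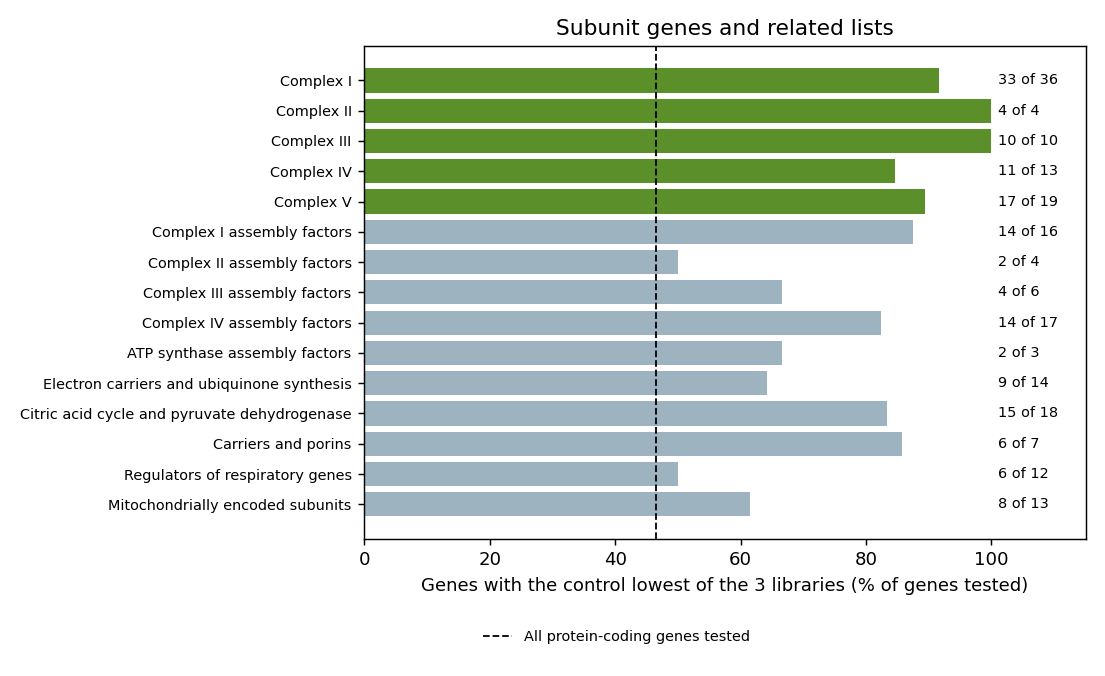
Bars give the percentage of tested genes of each list in which the control was the lowest of the 3 libraries, for the subunits of complexes I to V (green) and 10 related lists (blue), with the numbers at right. The dashed line marks 46.5%, the share over all protein-coding genes tested, and the bars of complexes I to V lie at 11 of 13 genes or above.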

How the data were processed

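RNA was sequenced from 1 control and 2 knockdown libraries. The deposited files hold FPKM per gene, per the file headers, which the authors computed by steps that the sources used here do not give in full. BWA, Bowtie and the build hg19 are named, per the submitters' processing notes, with no versions. For the counting tool: not given in the sources used here. Gene IDs are those of GENCODE 29 (Ensembl release 94) on GRCh38, and with its exon lengths 100% of the values gave whole reads (tolerance 0.05), so reads were recovered. The totals these imply for scaling were 16884200, 15564000 and 16261700, in proportion to median-of-ratios size factors.

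All genes whose mean reached 1 FPKM were tested with limma 3.58.1 (R 4.3.3) with an intensity trend on log2(FPKM + 1), with a pseudocount of 1, 1 residual degree of freedom, a prior of 4.742 degrees of freedom and Benjamini-Hochberg adjustment over all genes (threshold 0.05). A fold change on this scale understates that of low genes. limma-voom (a prior of 35.5 degrees of freedom) was run on recovered reads, for genes that averaged 10 reads or more. Poisson and Wilson intervals at 95% are from scipy 1.17.1 (Python 3.11.15). Fits were tested on simulated data. Other scalings, filters, pseudocounts and variance models, and leaving out each knockdown library, were tried.

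The genes and lists were chosen with earlier results of these data known. Named are every gene called, and per complex the 2 highest in level, the 3 largest and the lowest differences, all of complex II, alternative forms, genes highest in the control or below the filter, and the 2 lowest p of each related list. Other genes named (NDUFS7, NDUFA13, ATP5PD, NDUFV1, NDUFV2, NDUFS8, UQCRFS1, ATP5PF, ATP5IF1, ESRRA, PPARGC1B and SLC25A6) were chosen after their values were seen. SCO2 has 2 gene IDs, of which 1 was used.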

Additional observations from a re-analysis of the deposited data

How the results depend on the processing

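Median-of-ratios rescaling changed no call. Quantile normalization and scaling to all assigned reads moved the median difference of the genes from 0.32 to 0.17 and 0.22, and the log2 ratio of summed FPKM from 0.52 to 0.31 and 0.41 in complex I, 0.31 to 0.14 and 0.21 in II, 0.38 to 0.19 and 0.27 in III, 0.32 to 0.10 and 0.22 in IV, and 0.37 to 0.16 and 0.27 in V. Of the 82 genes, 6 turned sign under quantile normalization and 4 under scaling to all assigned reads. Among the 35 named genes these were, after quantile normalization, ATP5MC2 (-0.14) and ATP5PD (-0.038), and, with scaling to all assigned reads, ATP5MC2 (-0.029), ATP5S (-0.061) and NDUFA13 (-0.052). The cause was not tested. Genes called by limma numbered 12 with no filter on level, a fit in which 1465 of 58735 genes were called and limma warned that its variance estimate was unreliable. With protein-coding genes only, limma called 1 of the 82 genes (NDUFS5) and 13 of all 9897 genes in that fit. The limma p-values themselves changed there: 1158 of the 9897 had an unadjusted p under 0.05, against 728 of the same genes in the main fit. limma-voom called 1. With 1 knockdown library left out there is no residual degree of freedom, so these are values with no test: the median difference was 0.32 to 0.36, the control was lower in 77 to 78 of 82 genes with separate intervals in 69 to 70, and the log2 ratios were 0.49 to 0.54, 0.27 to 0.35, 0.34 to 0.42, 0.31 to 0.33 and 0.36 to 0.38 in complexes I to V. Over all genes tested the control was then lower in 55.0% to 56.7%, and separate intervals were not counted over all genes in this setting. With either knockdown library left out, the difference ranged from -0.18 (without knockdown 2) to 0.16 (without knockdown 1) for COX7A2L and from -0.093 (without knockdown 1) to 0.068 (without knockdown 2) for NDUFS7. It ranged from -0.12 (without knockdown 1) to 0.14 for NDUFA13, from -0.0088 (without knockdown 2) to 0.27 for ATP5PD and from -0.017 (without knockdown 2) to 0.029 for ATP5S. Separate intervals fell from 65 to 49 genes with scaling to all assigned reads, and they were not counted over all genes in that setting. By the order of the libraries alone, the control was lowest there in 69 of the 82 genes and in 29.7% of all genes tested. Filters chosen after seeing the data gave the control lowest in 49 of 51 genes with under 10% of exon bases shared, where the median was 0.37, and in 54 of 54 genes whose mean reached 30 FPKM. Other protein-coding genes had the control lowest in 70.1% between 30 and 100 FPKM and in 79.4% at 100 FPKM or more. Of the 110 related genes tested, the control was lowest in 80, beside 42.5% of all genes tested. Over these alternatives the number was 59 to 93, and the number of genes tested varied with the filter. That range includes the settings with 1 knockdown library left out. There the control need only lie below the remaining knockdown library, as it did in 55.0% to 56.7% of all genes tested. The other filters, pseudocounts and variance models kept the direction of each named gene they covered (35, or 32 with a mean of at least 5 FPKM). Intervals were not computed after quantile normalization or for pseudocounts and variance models, which do not apply to them. No paired analysis was possible because the labels give the control no replicate number to share with the knockdown libraries. Depth limits most the genes with few reads, such as NDUFA13 with 45 to 60 and the untested NDUFA7 with 8 to 24.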
